A study of Mus musculus with 46 samples.

Results

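The 6 brain samples described here were pieces of mouse brain left at room temperature (RT) for 0, 1, 3, 6, 12 or 24 h before the RNA was preserved, 6 of the 46 arrays of a study on post-mortem storage of heart, liver and brain. They were chosen by tissue, storage temperature and time as labelled, with every RIN value at 7.3 or higher (RIN, the RNA integrity number, is highest for intact RNA and lowest for degraded RNA). The 3 arrays of 0, 1 and 3 h are called early and the 3 arrays of 6, 12 and 24 h late. Comparison arrays were 6 brain samples of the same times at 4 °C, 6 heart samples of the same times at RT, and the brain samples of 48 and 96 h at RT. According to the methods, all animals were male C57BL6 mice of an Il1a knock-out strain whose age is not given in the sources used here, different animals were used for RT and 4 °C, and brain and heart on the arrays came from the same individual at all times. The 6 arrays are therefore different pieces of 1 brain at 6 times, the brain region of each piece is not stated, and the 3 arrays of a group are not repeats of 1 time. P-values measure the spread between these pieces, not between animals. The methods give 14 h where the labels give 12 h, and the labelled time was used.

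MiRNAs are short RNAs, cut from hairpin precursors, that guide Argonaute proteins to messenger RNAs through their seed, bases 2 to 8. Brain is known for a few very abundant miRNAs such as miR-124, which is made by neurons, miR-9 and miR-128, together with let-7 and miR-29. MiRBase, the registry of miRNAs, numbers them in order of entry. Low numbers are therefore earlier entries, among them the long-known, well-conserved miRNAs, and high numbers come mostly from later sequencing of small RNA. An array measures a miRNA as the fluorescence of labelled RNA bound to probes for its sequence, and RNA of a similar sequence can bind the same probe.

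The mature sequences below are those of the 6 miRNAs called in the comparisons over 24 h, shown because the results turn on them, with the seed in capitals. They are RefSeq sequences on assembly GRCm38.p6, as are all others printed, and 473 of the 552 miRNAs tested had 1 such sequence under the array's name.
miR-3473f: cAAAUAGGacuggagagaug
miR-5118: aAGGUUAGgccagccuggu
miR-5130: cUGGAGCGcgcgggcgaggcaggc
miR-6931-5p: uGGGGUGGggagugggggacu
miR-5119: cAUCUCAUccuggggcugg
miR-7221-3p: uGACUGUGggcuggggacugg
No pair of these shares a seed. miR-3473f lies at chr1:106546536-106546555 on the minus strand within the span of Bcl2, an inhibitor of apoptosis, and miR-5118 at chr16:55494770-55494788 on the plus strand within Gm45968. miR-5130 lies at chr14:102982608-102982631 (minus) within Kctd12, miR-5119 at chr11:98262638-98262656 (plus) within Cdk12, a kinase of transcribing RNA polymerase, and miR-6931-5p at chr11:102999896-102999916 (minus) within Gm34620 and Dcakd. miR-7221-3p at chr2:92592257-92592277 (plus) lies in no other annotated gene. Exon and intron positions were not analysed here.

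The RNA of the early samples had RIN values of 8.4, 8.0 and 8.7 at 0, 1 and 3 h, and that of the late samples 8.2, 7.9 and 7.3 at 6, 12 and 24 h, so that the values of the groups overlapped (difference -0.567, exact permutation test, 2-sided p = 0.2, where 3 against 3 arrays cannot go below 0.1). The arrays detected 491, 547 and 527 miRNAs early and 547, 533 and 593 late. The late mean of 558 ± 31.4 (SD, n = 3) was 36 above the early mean of 522 ± 28.4 (exact permutation p = 0.3). The summed signal of the detected miRNAs ran from 249616 units at 0 h to 385643 at 1 h, and the other 4 arrays lay between them. These 2 arrays stood apart: the 0 h array was the lowest of the 6 for 321 of 552 miRNAs, and the 1 h array was the highest for 270. Over the tested miRNAs, the median absolute log2 difference between 2 early arrays was 0.443 to 1.02, against 0.124 to 0.225 between 2 late arrays. All 6 arrays lay on 1 slide, those of 0 to 6 h in its first row and those of 12 and 24 h in its second row. The counts below are therefore also given without the 0 h and 1 h arrays and with the slide row as a block. With the row in the fit, late against early rests on the 6 h array alone against the 3 early ones. Time also goes with row over the 6 arrays. A loss of calls in these fits therefore cannot tell row from time.

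Values are the authors' log2 signals after variance stabilizing normalization, a rescaling of arrays to each other. The miRNAs tested were the 552 detected on at least 3 of the 6 arrays, 442 of them on all 6, and a call is an adjusted p under 0.05 in limma. Of the 552, 3 miRNAs rose from early to late (0.543%) and 0 fell. These were miR-3473f, miR-5118 and miR-5130, later entries of the registry. At an unadjusted p under 0.05, 84 were higher late (15.2%) and 3 were lower (0.543%). This split depended on the scaling: it was 58 against 19 with scaling to the 75th percentile, 62 against 27 with another background correction and 58 against 32 with quantile normalization. The median difference over all 552 was +0.12, and it ran from -0.07 to 0.38 under the other scalings. In tissue RNA, a change of RNA per cell and a change in the share of cells in a piece cannot be told apart.

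miR-3473f measured 3.92, 4.65 and 6.24 at 0, 1 and 3 h, then 8.13, 7.80 and 8.36 at 6, 12 and 24 h. The late mean was 3.16 higher on the log2 scale (SE 0.54, 8.94-fold, adjusted p = 0.0472). All late arrays lay above all early ones, and its largest step was that from 3 to 6 h (1.89). miR-5118 measured 1.43, 1.82 and 2.43 early and 3.69, 4.09 and 4.26 late, a difference of 2.12 (SE 0.37, adjusted p = 0.0472). It was detected on 2 of the 3 early arrays and on all late ones. miR-5130 measured 2.25, 2.58 and 2.73 early and 4.15, 4.27 and 4.57 late, a difference of 1.81 (SE 0.32, adjusted p = 0.0472). In miR-5130 the spread within the groups was the smallest of the 3 (SD 0.24 early and 0.22 late), and again no early array reached a late one. On the arrays of 48 and 96 h, which were in no test, miR-3473f stood at 9.09 and 10.80, miR-5118 at 4.98 and 4.28, and miR-5130 at 5.51 and 6.38.

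**Figure D1:**
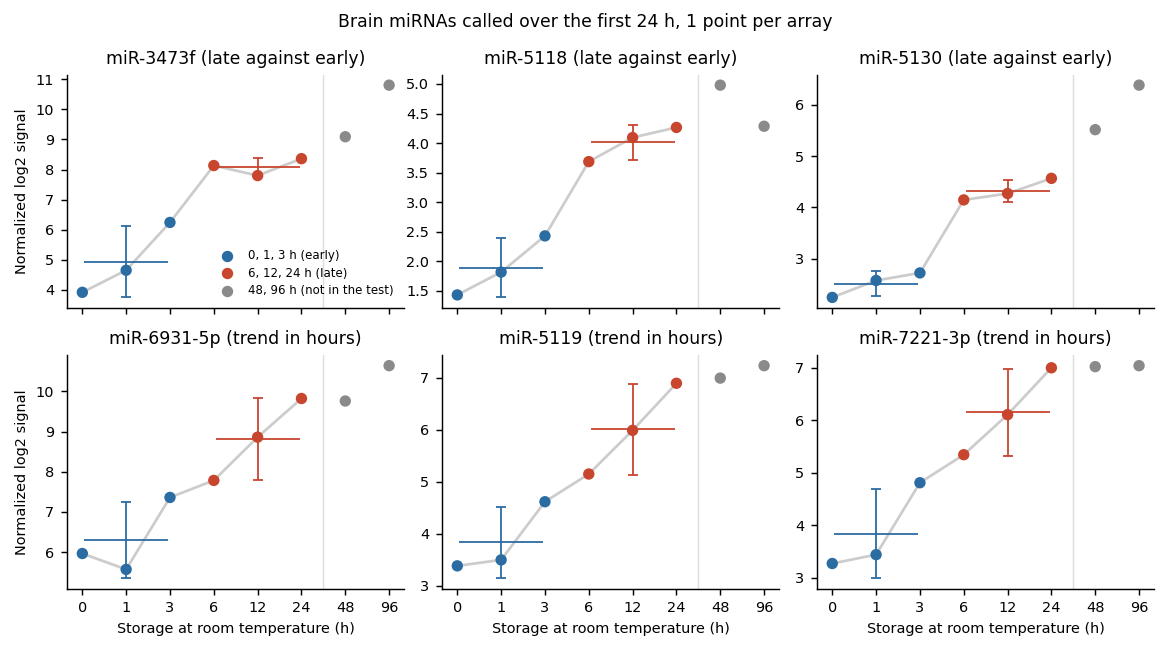
Normalized log2 signal of the 6 called miRNAs against storage time at RT in hours, 1 point per array, with bars for the mean and SD of the early (blue) and late (red) groups of 3 arrays; the arrays of 48 and 96 h (grey) entered no test. In miR-3473f the early arrays lie between 3.92 and 6.24 and the late arrays between 7.80 and 8.36, while miR-6931-5p, miR-5119 and miR-7221-3p climb on from 6 to 24 h.

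The next miRNAs by p-value did not pass. miR-7070-5p was at 4.12, 4.58 and 5.02 early and at 6.10, 6.35 and 6.81 late (adjusted p = 0.0723), and miR-3473e at 3.50, 3.53 and 4.93 against 5.96, 6.09 and 6.24 (adjusted p = 0.0723). Neither had overlapping groups. The largest difference of all, chosen here after the values were seen, was that of miR-804, at 1.31, 0.21 and 5.22 early and at 6.11, 6.93 and 7.0 late (+4.43, SE 1.04, adjusted p = 0.0874). Its early SD of 2.63 held a large step between 1 and 3 h, and it was detected on 1 early array and on 3 late ones. Of the 552 miRNAs, 111 had all late arrays above all early ones (20.1%) and 15 all below (2.72%). The first number was 77 with the 75th percentile, 68 with quantile normalization and 90 with the other background correction, where the second was 61, 82 and 70. Without the 0 h array the numbers were 115 and 82, and without the 1 h array 259 and 28. A mean difference over 2-fold together with groups that did not overlap was found for 58 miRNAs upward (10.5%) and 1 downward (0.181%). The upward counts include miRNAs detected on 0 early arrays, which passed the detection filter through the late arrays alone.

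The number of calls late against early was 0 without the 0 h, the 1 h, the 12 h or the 24 h array, and it was 34 without the 3 h array and 7 without the 6 h array. It was 0 with the slide row as a block, a fit that rests on the 6 h array for the late group and cannot tell row from time. With other scalings none of the 3 passed: their adjusted p-values were 0.0766 (miR-3473f), 0.0605 (miR-5118) and 0.0591 (miR-5130) with the 75th percentile, 0.107, 0.0886 and 0.0886 with quantile normalization and 0.0628, 0.0840 and 0.0757 with the other background correction, so that the calls counted under those settings were of other miRNAs. Without scaling all 3 passed (0.0497, 0.0497 and 0.0498). The size of the difference was close to the main value with the 75th percentile, whereas the other background correction, which adds a constant to every spot, gave 1.92 for miR-3473f, 0.31 for miR-5118 and 0.27 for miR-5130. The rank test of the study's methods cannot fall below 0.1 with 3 against 3 arrays and called 0.

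As a straight line over the hours, 3 miRNAs rose (0.543%) and 0 fell, and none of these 3 was among the 3 above. miR-6931-5p measured 5.97, 5.57 and 7.36, then 7.78, 8.86 and 9.82, a slope of 3.98 per 24 h on the log2 scale (SE 0.70, adjusted p = 0.0448). The 1 h array was below the 0 h array, and each later array was higher than the one before. miR-5119 measured 3.38, 3.50, 4.62, 5.15, 5.99 and 6.90 over the 6 times (3.44 per 24 h, SE 0.60, adjusted p = 0.0448), and miR-7221-3p 3.27, 3.44, 4.81, 5.34, 6.10 and 7.0 (3.56 per 24 h, SE 0.66, adjusted p = 0.0477). Both were higher on every array than on the array of the time before. On the arrays of 48 and 96 h, miR-6931-5p stood at 9.76 and 10.64, miR-5119 at 7.0 and 7.24, and miR-7221-3p at 7.02 and 7.04, close to the level of 24 h for the last 2. miR-1907 and miR-7047-5p (2.60 per 24 h, adjusted p = 0.0594) came next and did not pass. miR-1907 was detected on 0 early arrays and passed the detection filter through the late arrays alone, so its slope is not given. At an unadjusted p under 0.05 the slope was upward for 63 miRNAs (11.4%) and downward for 3 (0.543%), against 34 and 10 with the 75th percentile, 42 and 9 with quantile normalization and 43 and 11 with the other background correction. Of the 3, miR-5119 (1.45 per 24 h, adjusted p = 0.0398) and miR-7221-3p (1.47, adjusted p = 0.0448) also passed with the other background correction at a smaller slope, while miR-6931-5p did not (2.89, adjusted p = 0.205). None of the 3 passed with the 75th percentile or quantile normalization. The calls were 0 without the 0, 3 or 24 h array, 0 with the slide row as a block, 15 without the 1 h array and 9 without the 6 h array.

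With time on a log2(hours + 1) scale, which gives early hours more weight, 39 miRNAs rose (7.07%) and 1 fell (0.181%). At an unadjusted p under 0.05 they were 88 (15.9%) and 5 (0.906%). The 39 include the 6 called above, and their fitted change from 0 to 24 h had a median of 2.59 and ran from 1.77 (miR-3620-5p) to 7.17 (miR-804). Of the 39, miR-1195 and miR-1907 were detected on 0 early arrays and passed the detection filter through the late arrays alone, so they had to differ and are only counted here. Among the others the lowest adjusted p was 0.00397, shared by miR-5119, miR-6931-5p, miR-7221-3p and miR-7226-5p. miR-7226-5p measured 3.21, 3.04 and 5.02, then 5.71, 6.34 and 6.92 (fitted change 4.21 from 0 to 24 h, SE 0.55). It lies at chr4:118210539-118210564 (minus) within Ptprf, a receptor phosphatase. Since the 39 were chosen for a rise over these arrays, their steps are a description: 36 were higher at 6, 12 and 24 h each than at the time before, and 21 were higher at 1 h than at 0 h. The median step of the 39 was 0.03 from 0 to 1 h, 1.05 from 1 to 3 h, 0.53 from 3 to 6 h, 0.29 from 6 to 12 h and 0.51 from 12 to 24 h. The median step of all 552 miRNAs was 0.82 from 0 to 1 h and -0.38 from 1 to 3 h. All 39 had an upward direction under the 4 other scalings, but with the other background correction their median change was 0.756 in place of 2.59 (lowest 0.126), and the number still called was 9 with quantile normalization, 1 with the other background correction and 0 with the 75th percentile. It was 18 without the 0 h array, 39 without the 1 h array, 24 without the 3 h array, 11 without the 6 h or the 12 h array, 5 without the 24 h array, 18 with RIN as a covariate and 0 with the slide row as a block.

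Of the miR-3473 members on the array 6 were tested, and 4 of them were among the 39 risers, where 7.07% of all 552 were. Their sequences are shown because the risers share letters that the others lack, the seed again in capitals. These letters were sought as the longest stretch common to the 4 risers, so they were drawn from the calls and are only a description.
miR-3473f: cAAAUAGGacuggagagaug
miR-3473e: gGGCUGGAgagauggcucgua
miR-3473b: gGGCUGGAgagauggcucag
miR-3473a: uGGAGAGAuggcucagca
miR-3473c: uCUCUCCAgcccccauaauaag
miR-3473g: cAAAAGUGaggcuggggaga
The stretch uggagagaug, 10 bases long, is in miR-3473a, miR-3473b, miR-3473e and miR-3473f, and in no other mature sequence of the RefSeq table. The first 18 bases of miR-3473b and miR-3473e are the same, so that they share a seed and their probes may bind each other's RNA, and miR-3473a shares 14 bases with both. The values of these 3 cannot be taken as separate measurements. miR-3473b, the brightest, measured 9.67, 10.39 and 10.46 early and 11.10, 11.28 and 11.69 late (fitted change 1.94, SE 0.42, adjusted p = 0.0274 on the log2 time scale). miR-3473a measured 6.82, 6.83 and 7.87 early and 8.48, 8.63 and 8.95 late (2.41, SE 0.46, adjusted p = 0.0195). In both, as in miR-3473e and miR-3473f, every late array was above every early one. miR-3473g stayed between 6.94 and 8.38, with its highest value at 1 h, and miR-3473c between 1.96 and 3.01, with its highest at 0 h, and neither passed a test. The 4 risers lie on chromosomes 1, 5, 10 and X, within Bcl2, Rbks, Ccdc162 and Syap1 respectively. At 48 h, outside the test, miR-3473b stood at 14.28 and miR-3473a at 11.52, and at 96 h at 11.97 and 9.15.

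**Figure D2:**
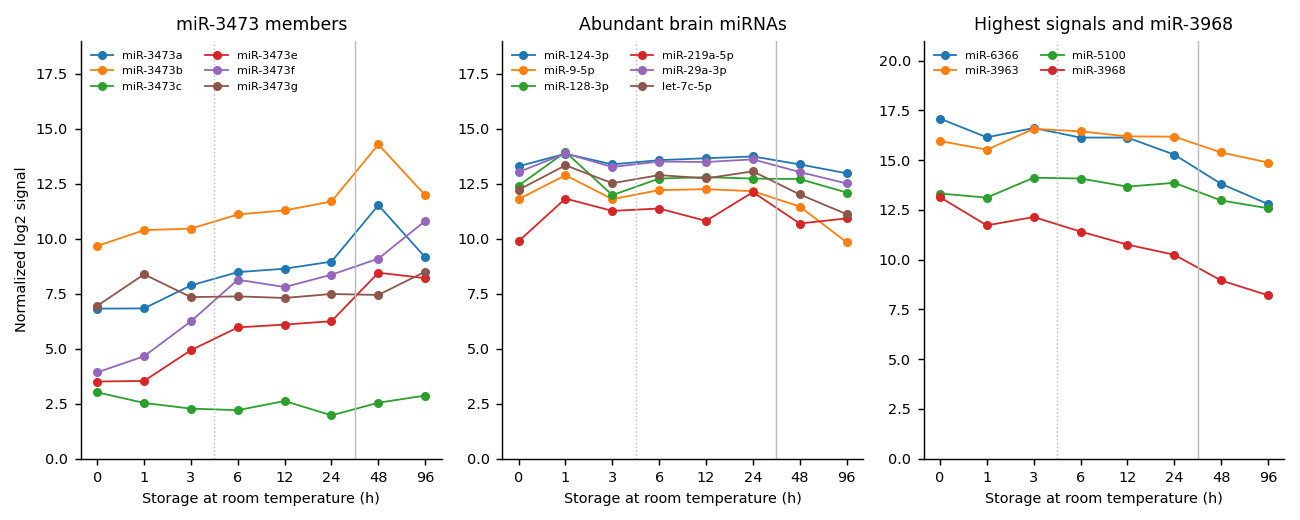
Normalized log2 signal per array against storage time at RT in hours for the miR-3473 members (left), abundant brain miRNAs (middle) and the highest signals with miR-3968 (right); the dotted line separates early from late arrays and the solid line the arrays of 48 and 96 h. miR-3473f climbs from 3.92 to 8.36 within 24 h, miR-124-3p stays between 13.29 and 13.86, and miR-3968 drops from 13.13 to 10.24.

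The only miRNA that fell in any of the 3 tests was miR-3968, in the log2 time scale alone. It measured 13.13, 11.72 and 12.14 early and 11.41, 10.75 and 10.24 late, and 8.95 and 8.21 at 48 and 96 h. Its fitted change was -2.61 from 0 to 24 h (SE 0.51, adjusted p = 0.0199), while late against early it was -1.53 and did not pass (adjusted p = 0.139). All late arrays lay below all early ones. miR-3968 shares a run of 9 bases with miR-5100 and 8 bases with miR-3963, both among the brightest signals.
miR-3968: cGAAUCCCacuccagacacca
miR-5100: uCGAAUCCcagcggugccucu
miR-3963: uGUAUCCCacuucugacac
miR-5100 measured 13.32, 13.12 and 14.12 early and 14.08, 13.67 and 13.86 late, and miR-3963 15.96, 15.52 and 16.57 early and 16.45, 16.19 and 16.18 late. Their groups overlapped, so the fall was not seen in these 2 (adjusted p = 0.879 and 0.921 late against early). miR-6366, the brightest miRNA of all, was at 17.09, 16.15 and 16.61 early and at 16.13, 16.13 and 15.28 late, which did not pass (adjusted p = 0.405). The other miRNAs with the smallest p-values downward did not pass either. miR-1983 was at 2.53, 2.34 and 2.70 against 1.99, 1.86 and 1.43 (adjusted p = 0.284), miR-6412 at 6.06, 5.22 and 5.67 against 5.20, 4.90 and 4.65 (0.379) and miR-7241-5p at 3.49, 2.94 and 3.08 against 2.06, 2.21 and 2.81 (0.288), while miR-652-5p went from 8.55, 6.75 and 7.43 to 7.05, 6.41 and 6.62 (slope -1.22 per 24 h, adjusted p = 0.623).

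The risers were read by miRBase number. Of the 358 tested miRNAs with a number under 1000, 0 were called late against early and 7 rose in log2 time. Of the 26 with a number between 1000 and 3000, 0 and 6 rose. Of the 168 with a number of 3000 or higher, 3 and 26 rose, against 0.543% and 7.07% of all 552. The median difference late minus early was -0.02, 0.59 and 0.59 in these 3 groups, and 27, 9 and 75 miRNAs had all late arrays above all early ones, against 111 of all 552 (20.1%). The number was not stable in the low class: it was 145 of 358 without the 1 h array (40.5%) and 53 without the 3 h array, and it was 99 and 105 of the 168 high numbers then. These counts include miRNAs detected on all late and 0 early arrays, which passed the detection filter through the late group alone. More of them are in the high class than in the low one. miR-1195 and miR-1907 are such miRNAs and are among the 6 risers between 1000 and 3000. Under the other scalings the median of the high numbers ran from 0.08 to 0.93 and that of the low numbers from -0.19 to 0.24, and the high numbers were above the low ones under each. Without 1 array in turn, the median of the low numbers ran from -0.27 (without 0 h) to 0.32 (without 1 h), and that of the high numbers from 0.49 to 0.68. The 7 risers with a number under 1000 were miR-99b-3p, miR-211-3p, miR-328-5p, miR-331-5p, miR-671-5p, miR-721 and miR-804. Those with 3p or 5p in the name are arms of known hairpins, and miR-99b-3p, miR-328-5p and miR-331-5p are the less abundant or alternative arms. miR-211-3p measured 5.57, 6.15 and 6.29 early and 6.84, 6.91 and 8.00 late, and miR-99b-3p 1.37, 1.28 and 2.93 against 3.11, 3.72 and 3.77. miR-211-5p, the other arm of the miR-211 hairpin, was dimmer on these arrays, at 1.59, 3.88 and 3.65 against 2.56, 2.26 and 4.47.

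**Figure D3:**
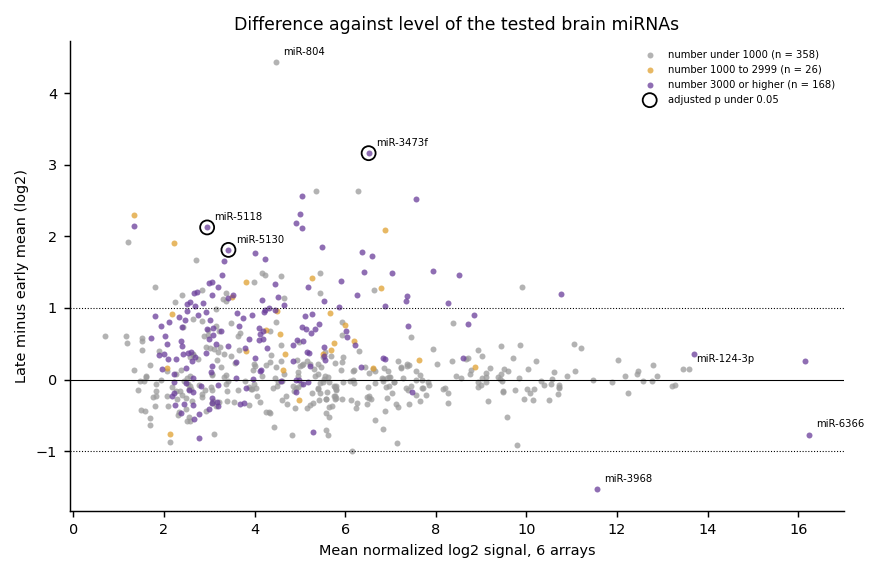
Late minus early mean (log2) against the mean normalized log2 signal of the 6 arrays for the 552 tested miRNAs, coloured by miRBase number, with rings around the 3 calls and dotted lines at 2-fold. Points above the upper line are mostly low or middle signals with high numbers, while bright miRNAs such as miR-124-3p lie near 0.

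None of the miRNA lists that follow had a call in any of the 3 tests. Since 0.543% of all 552 passed late against early or over the hours and 7.07% rose in log2 time, lists of this size would hold few calls at the overall share, and a count of 0 says little about them. Their values are given for that reason. Of the 20 neuron-enriched miRNAs tested, 0 passed and 0 had an unadjusted p under 0.05, with a median difference of -0.08 against +0.12 for all tested. miR-124-3p measured 13.29, 13.86 and 13.38 early and 13.57, 13.66 and 13.74 late, and miR-9-5p 11.80, 12.88 and 11.80 against 12.21, 12.25 and 12.16. In these, as in miR-128-3p (12.41, 13.94 and 11.98 against 12.73, 12.80 and 12.73), the 1 h array was the highest and the late arrays were close together. The smallest p in the list was that of miR-137-3p, at 9.55, 10.02 and 9.25 against 9.95, 10.35 and 9.98. The 9 let-7 guide strands had a median of 0.05 and 0 calls, and let-7c-5p measured 12.22, 13.34 and 12.52 against 12.89, 12.74 and 13.06. Of 25 imprinted miRNAs of the Dlk1-Dio3 region, the miR-379 to miR-410 cluster and its neighbours such as miR-127-3p and miR-433-3p, 0 passed (median 0.02, smallest p miR-433-3p at 5.23, 6.66 and 5.90 against 5.12, 5.21 and 5.33).

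Among glial and vessel miRNAs, 0 of 4 oligodendrocyte miRNAs (median 0.17), 0 of 11 astrocyte miRNAs (0.08) and 0 of 8 vessel miRNAs (-0.14) passed. miR-219a-5p, which promotes myelinating oligodendrocytes, was at 9.88, 11.82 and 11.26 early and 11.37, 10.81 and 12.11 late. Of the 9 tested blood cell miRNAs 0 passed (median -0.31). miR-451a of red cells was at 8.96, 11.17 and 9.38 against 9.31, 9.14 and 9.52, with the 1 h array above the rest, and miR-223-3p of myeloid cells, the smallest p of the list, at 4.13, 5.21 and 4.91 against 3.90, 3.98 and 4.37. The 8 miRNAs linked to low oxygen and stress had 0 calls (median -0.15), and miR-34a-5p, a target of p53, was at 9.42, 10.98 and 10.35 against 9.35, 8.81 and 9.86 (-0.91, adjusted p = 0.405).

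Of 6 tested activity-regulated neuronal miRNAs, 0 passed and 2 had an unadjusted p under 0.05, both upward, where 84 of all 552 did (15.2%). miR-134-5p, which acts on dendritic spines, measured 2.48 and 3.03 at 0 and 1 h, 6.58 at 3 h, then 6.91, 7.25 and 5.82 (adjusted p = 0.181). Its step lay between 1 and 3 h, within the early group, as in miR-804. miR-188-5p was at 4.27, 3.24 and 4.71 against 4.88, 5.27 and 5.47 (adjusted p = 0.207). miR-132-3p, the classic activity-regulated miRNA, was at 10.83, 11.53 and 10.23 against 10.98, 10.85 and 10.90.

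Markers of brain regions varied between the arrays, as other miRNAs did, and their spread was not compared with that of all miRNAs. miR-204-5p of the choroid plexus was at 8.02, 10.20 and 10.01 early and 8.92, 8.56 and 10.99 late, and miR-34c-3p, of ciliated cells, at 1.49, 3.64 and 2.27 against 2.14, 1.73 and 4.54. The 24 h array was the highest in both. The 0 h array was the lowest in both, as it was for 321 of all 552 miRNAs. In the same choroid plexus and ventricle list, miR-449a-5p went the other way, at 1.12, 2.40 and 2.25 against 1.01, 0.29 and 1.33. It was detected on 2 early and 0 late arrays and was not tested, while the 5 tested members all had a positive difference. The 5 tested miRNAs of this list had a median difference of 0.29 and a median slope of 1.63 per 24 h, with 0 calls, and their part in the trend results was not tested. The olfactory and sensory list had 3 of its 9 members tested, with 0 calls (median 1.13), and miR-200a-3p was at 2.23, 2.15 and 3.88 against 4.71, 3.49 and 3.69. miR-96-5p, miR-182-5p and miR-183-5p of sensory cells were detected on too few arrays to be tested. Their late minus early differences were downward, at -0.56, -0.18 and -1.49. Of the other untested members, miR-200c-3p was lower late (-1.15), and miR-200b-5p (1.27) and miR-141-3p (0.40) were higher. Of the 7 Hox-cluster miRNAs of hindbrain and spinal cord 0 were tested, and of the 3 tested hypothalamic and pituitary miRNAs 0 passed, with miR-7a-5p at 6.47, 7.90 and 7.46 against 7.16, 7.71 and 7.54. Of 8 miRNAs of other organs 5 were tested and 0 passed. miR-1a-3p of muscle was at 5.63, 7.84 and 6.46 against 5.71, 5.02 and 6.21, and miR-122-5p of liver at 1.80, 4.06 and 2.16 against 2.28, 3.64 and 3.94. The 7 tested let-7 passenger strands had 0 calls (median -0.24, smallest p let-7c-1-3p).

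The number of detected miRNAs was also read by miRBase number, without a test. Of miRNAs with a number of 3000 or higher, 149, 149 and 147 were detected at 0, 1 and 3 h and 173, 169 and 188 at 6, 12 and 24 h, so that the groups did not overlap. Of those under 1000, 318, 373 and 356 were detected early and 349, 340 and 377 late, with overlapping groups. At 48 and 96 h, with RIN values of 5.5 and 3.3, the high numbers came to 277 and 335 and the low numbers to 374 and 417.

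**Figure D4:**
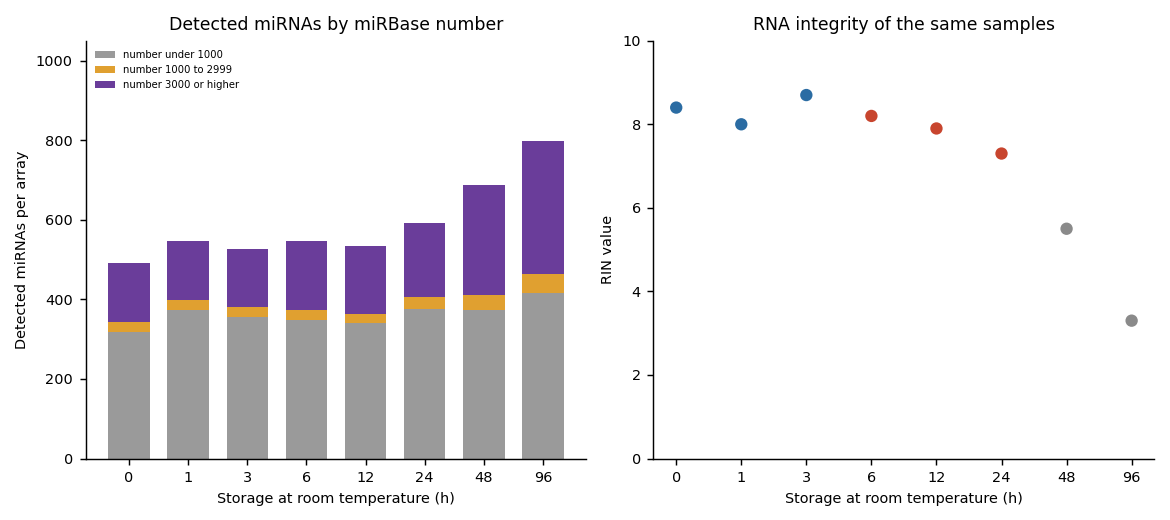
Left, miRNAs detected per brain array at RT, stacked by miRBase number, against storage time in hours; right, the RIN value of the same samples (blue early, red late, grey 48 and 96 h). The part with numbers of 3000 or higher grows from 149 at 0 h to 188 at 24 h, and RIN goes from 8.4 to 7.3.

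On detection alone, 14 miRNAs were detected on all 3 late arrays and on 0 early arrays, and 1, let-7f-1-3p, the other way round. These passed the detection filter through 1 group alone, so that their detection had to differ. For these, the early level is a bound, the higher of the probe's own signal and the dimmest detected signal of the array. miR-1195 measured 2.05, 2.52 and 2.90 late, at least 2.30-fold higher than early. miR-1907 measured 2.32, 3.33 and 3.86 (at least 3.24-fold), miR-6391 2.27, 2.39 and 2.61 (at least 2.20-fold) and miR-7085-5p 3.09, 3.09 and 2.93 (at least 2.07-fold). The bounds of the others (miR-452-5p, miR-678, miR-877-5p, miR-3067-3p, miR-6921-5p, miR-6974-5p, miR-7046-5p, miR-7063-5p, miR-7665-5p and miR-7684-5p) were lower, from 1.02-fold to 1.92-fold. let-7f-1-3p, the passenger strand of a let-7 hairpin, was at 3.27, 2.43 and 2.18 early and at 2.42, 2.59 and 2.49 late, with overlapping values. Its 0 h array alone lay above all late arrays, and no fold is given. Of the 552 tested miRNAs, 101 were not detected on all early arrays.

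The sequences of the risers held much G, a property that the tests did not use. Over the 473 tested miRNAs with a sequence the median G content was 27.3%, and among the 34 risers in log2 time that had one it was 47.6%. A run of 3 or more G was in 27 of these 34 (79.4%) and in 173 of the 473 (36.6%). This went with the miRBase number, since the median was 22.7% among numbers under 1000 and 43.5% among those of 3000 or higher. Within numbers under 1000, the 23 miRNAs whose late arrays were all above the early ones had a median of 31.8%, against 22.7% in the other 283. Within numbers of 3000 or higher, the medians were 47.8% in 63 and 38.1% in the other 82. The 23 and the 63 include miRNAs detected on 0 early arrays, and the 34 risers include miR-1195. These passed the detection filter through the late arrays alone. The 12 miRNAs with a sequence whose late arrays were all below the early ones had a median of 13.6% G and 42.0% C. miR-6931-5p and miR-2861 are 2 of the most G-rich risers, and the first is printed above.
miR-2861: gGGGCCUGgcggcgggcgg
miR-7047-5p: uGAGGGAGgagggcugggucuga
miR-2861 measured 5.93, 4.79 and 6.78 early and 7.21, 7.86 and 8.68 late, and miR-7047-5p 7.64, 7.28 and 8.41 against 8.47, 9.09 and 10.15. The seeds of the 34 fell into 33 groups, so that miR-3473b with miR-3473e was the only pair with a common seed.

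**Figure D5:**
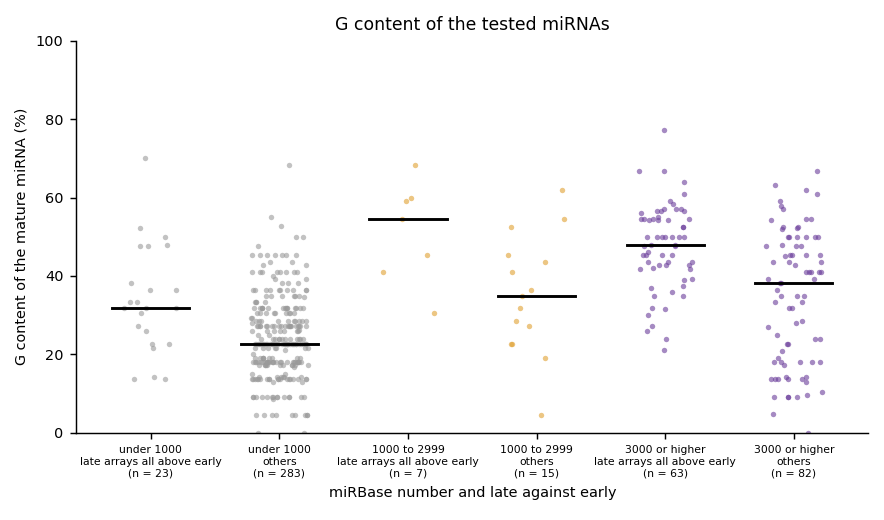
G content of the mature sequence in percent for the tested miRNAs, split by miRBase number and by whether all late arrays lay above all early ones, 1 point per miRNA with the median as a bar. In the low numbers the medians are 31.8% against 22.7%, and in the high numbers 47.8% against 38.1%.

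To ask whether RT storage differed from storage at 4 °C, the change from early to late was compared with that of the brain at 4 °C in 1 limma fit over 12 arrays. Of 590 miRNAs, 0 were called in either direction, with 32 higher at RT (5.42%) and 5 lower (0.847%) at an unadjusted p under 0.05 and a lowest adjusted p of 0.735. The split was 11 against 19 with the 75th percentile, 16 against 17 with quantile normalization and 26 against 15 with the other background correction. RT and 4 °C also differ in animal and slide, which cannot be told apart from temperature. The pieces differed here too: on the 4 °C array of 3 h, miR-200a-3p was at 11.83, miR-96-5p at 10.53 and miR-183-5p at 9.27, and on that of 24 h at 8.34, 6.71 and 5.67, while no RT brain array had miR-200a-3p above 4.71 within 24 h. Without the 4 °C array of 3 h the calls stayed 0, and the lowest adjusted p was 0.683. Leaving out the RT array of 3 h gave 7 calls and that of 1 h gave 1. With arrays of the same time paired the calls were 0 as well (lowest adjusted p 0.932). RIN values at 4 °C lay between 8.4 and 8.7.

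miR-3473f changed by +3.16 at RT and +1.90 at 4 °C, a difference of 1.26 whose 95% interval ran from -0.45 to 2.97 (adjusted p = 0.840). For miR-5118 the changes were +2.12 and +1.81 (interval of the difference -0.72 to 1.34), and for miR-5130 +1.81 and +1.18 (-0.02 to 1.28). miR-6931-5p changed by +2.52 at RT and +0.49 at 4 °C (difference 2.04, interval 0.47 to 3.60, adjusted p = 0.735). The smallest p-values were those of miR-3063-3p (+0.61 against -0.64), miR-7a-2-3p (+0.82 against -1.24) and miR-7226-5p (+2.57 against +0.46) upward, and of miR-291b-5p (-0.24 against +0.73), miR-8093 (+0.61 against +2.36) and let-7f-1-3p (-0.13 against +0.82) downward, each with an adjusted p = 0.735. Of these, miR-3063-3p was detected on 0 of the 6 arrays at 4 °C, and miR-291b-5p and miR-8093 on 1 of the 6 at RT, so that their changes lie at the background there. Of the 39 risers, 26 had all late arrays above all early arrays at 4 °C as well (13.6% of all 552 did), and 37 had a positive change there (35.7% of all 552 did), with a median of 0.57 against 1.50 at RT. As the 39 were chosen for their values at RT, a smaller change elsewhere is no finding. By miRBase number the share at 4 °C was 17 of 26 risers with a number of 3000 or higher (30.4% of all 168 such miRNAs) and 4 of 7 under 1000 (4.19% of all 358).

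Against heart at RT, 601 miRNAs were compared and 0 were called, with 20 higher in brain (3.33%) and 13 lower (2.16%) at an unadjusted p under 0.05. The split was 13 against 28 with the 75th percentile, 25 against 24 with quantile normalization, where 4 were called, and 61 against 26 with the other background correction, where 6 were called. The smallest p-values were those of miR-327, whose change was +1.85 in brain and -0.10 in heart (adjusted p = 0.112), miR-7009-5p (+0.95 and -0.84, 0.154) and miR-6975-5p (+1.09 and -0.36, 0.214) upward. Downward they were those of miR-672-5p (-0.12 and +1.88, 0.214), the imprinted miR-433-3p (-0.71 and +1.16, 0.782) and the red cell miR-144-5p (-0.95 and +1.15, 0.782). miR-327 was detected on 1 of the 6 brain arrays, miR-6975-5p on 0, and miR-144-5p on 1. On the 6 heart arrays miR-433-3p was detected on 0 and miR-672-5p on 1. Of the 6 miRNAs named, these 5 thus lie at the background in 1 of the tissues. All 39 brain risers had a positive change in heart, with a median of 1.02 (54.2% of all 552 were positive), and 23 of them had all late heart arrays above all early ones (13.9% of all). miR-3473f changed by +3.59 in heart, with a difference of -0.43 (95% interval -2.19 to 1.34). With arrays of the same time paired, 0 were called (lowest adjusted p 0.374). Brain and heart arrays lay on different slides, and slide cannot be told apart from tissue.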

How the data were processed

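Total RNA was hybridised by the authors to 1-colour Agilent mouse miRNA arrays (1881 miRNAs, 30 spots each). The deposited log2 values are background-corrected signals that the authors normalized by variance stabilizing normalization, and these were used as the main values. The deposited scanner files give the signal intensity of each spot and a detection flag, 1 or 0 per miRNA, set by Agilent Feature Extraction. Their number of arrays limits the precision, and no depth applies.

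Groups came from the labels. miRNAs detected on at least 3 arrays of a fit were tested with limma 3.58.1 in R 4.3.3 with Benjamini-Hochberg adjustment, late against early, as a slope over the hours, and as a difference between 2 changes (RT minus 4 °C, brain minus heart). Named miRNAs were up to 10 calls per direction, or the 5 smallest p-values where fewer than 5 passed, the 5 smallest p-values of the trend, 3 per direction of each difference, and detection on 3 against 0 arrays. The plan also named the smallest p of each list. In the let-7 guide, choroid plexus and other organ lists, other members are given instead. For the astrocyte and vessel lists no member is given. Members and lists were chosen with earlier results of these data known. Alternatives were scaling to the 75th percentile, quantile normalization, no scaling (floor 1), normexp background correction (offset 50), other filters, covariates, scales of time, pairing by time and leaving out each array. The scanner files used here hold the median and not the mean spot signal, so normexp ran on the median, where the plan named the mean. Scripts were tested on simulated data. miRNAs without a RefSeq sequence under their name are named only.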

Additional observations from a re-analysis of the deposited data

How the results depend on the processing

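No paired analysis was possible because, within brain at RT, each time has 1 array and the replicate number in the labels is the same for every array. For the differences from 4 °C and from heart, a fit with time as a block, added after the data had been seen, gave 0 calls each, as without it. Late against early gave 3 calls, 1 with 75th percentile scaling, 0 with quantile normalization, 13 without scaling, 2 with normexp, 8 with detection on every array, 5 without a filter, 13 with the study's filter, 3 with an intensity trend, 2 with RIN as a covariate, 0 with the slide row as a block and 0 by the methods' Wilcoxon test. Leaving out 1 array gave 0 to 34. The trend over the hours gave 3 calls, 0 with the 75th percentile, 0 with quantile normalization, 11 without scaling, 7 with detection on every array, 0 without a filter, 0 with the study's filter, 0 with the slide row, 36 with RIN, 40 with log2(hours + 1), 39 with ranks of time and 4 with 14 h for 12 h. Leaving out 1 array gave 0 to 15. The log2 time trend was examined further after the data had been seen. It gave 40 calls, 0 with the 75th percentile, 10 with quantile normalization, 67 without scaling, 3 with normexp and 0 with the slide row. Leaving out 1 array gave 7 to 106 (106 without 1 h, 7 without 24 h). These are all calls under each setting, not the part of the 40 that stayed. As the slide row goes with time, the counts with it cannot tell row from time. The difference from 4 °C gave 0 calls, and 0 to 7 without 1 array. That from heart gave 0, but 4 with quantile normalization, 6 with normexp, 1 without a filter, and 0 to 1 without 1 array. The late minus early number of detected miRNAs was 36, from 18.3 to 48.7 without 1 array and 39 among the miRNAs of the study's filter. Of the 32 differences and slopes named by the rule for the 4 tests, none turned its direction under the 4 other scalings. The late minus early differences of list members, of most detection switches and of miR-804 are not among the 32. Where values differ between settings, the cause was not tested, except that fewer arrays or other filters change what is tested. Of the 552 tested miRNAs, 101 were not detected on every early array, which limits what their early values show.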
